A study of Mus musculus with 8 samples.

Results

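A set of 10 genes of the mouse 2-cell embryo was followed across the depletion of 3 HIRA complex members: Tmem92, Ddit4l, Zfp352, Sp110, Tcstv1, Tcstv3, Gm21761, Gm20767, Pramef17 and Gm12794. They were chosen by name from the 2-cell stage genes outside the Zscan4 and Usp17l families, with earlier results of these data known, and are 10 of the 55418 genes in the count tables. Their levels and changes are therefore given as a description, and no p-value is attached to any of them. The RNA came from E14 cells, a mouse embryonic stem cell (ESC) line of strain 12910la, grown without feeder cells on gelatin in serum with leukaemia inhibitory factor. The 8 libraries, 2 in each of 4 groups, were control cells labelled wild type and cells labelled as knockdowns of Hira, Ubn1 or Ubn2. All groups received 1000 ng of a pSuper puro plasmid and were selected with puromycin, per the labels at 1 µg/ml from 24 h after transfection for 3 days, where the study's methods give a slightly lower dose and a start that could be earlier. In the knockdown groups the plasmid carried a short hairpin RNA (shRNA) against the named gene, and per the study's methods the control plasmid carried one against luciferase. The cells were selected pools of transfected cells, the design has no rescue group, and the sources used here do not say which shRNA of each gene made these libraries or whether replicates came from separate cultures.

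The 2-cell stage is when the mouse embryo first transcribes its own genome, and a burst of genes and of the endogenous retrovirus MERVL marks it. A rare fraction of cultured ESCs passes through a similar state, called 2-cell-like, in which the same genes come on together. Many of these genes belong to families that multiplied recently in the mouse genome, and several start from retroviral long terminal repeats. HIRA, with UBN1 or UBN2, deposits the histone variant H3.3 onto chromatin outside DNA replication. The comparison asked how the RNA of 2-cell genes differed when each of these 3 proteins was depleted.

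Levels are given in CPM, a gene's counts per 1000000 counts of its library, with TMM scaling over the 8 libraries. Totals ran from 19710040 to 32706053 counts, so 3 counts in a library corresponded to between 0.0909 and 0.153 CPM, a precision that covers counting error only. The targeted genes were lower in their own libraries: Hira fell from 93.6 ± 5.76 to 10.2 ± 0.261 CPM (SD, n = 2), Ubn1 from 48.6 ± 6.33 to 23.8 ± 0.0363 CPM and Ubn2 from 50.9 ± 1.12 to 27.4 ± 3.92 CPM, with edgeR adjusted p-values of 5.57e-15, 4.02e-07 and 7.20e-07. The depletions thus left 10.8% of Hira, 49.0% of Ubn1 and 53.8% of Ubn2 RNA. These p-values measure only the spread between the libraries, which may be technical. All 10 ESC markers were counted in every group. Their summed level was 7100 to 7390 CPM in control and 6319 to 6470 CPM with Hira depleted. It was 6429 to 6526 CPM with Ubn1 and 6122 to 6258 CPM with Ubn2 depleted. Every depleted library thus lay below both control libraries in this sum. Of the single markers, Tdgf1 and Dppa5a were called lower in Ubn2 depletion.

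Most of the 10 genes were scarce in control ESCs and more abundant in each depletion. Their summed level was 10.7 ± 0.990 CPM in control libraries, and the means were 35.8 ± 2.74, 21.3 ± 1.43 and 44.2 ± 6.41 CPM where Hira, Ubn1 and Ubn2 were depleted. Ddit4l alone made up 68.3% of the control sum and 49.4% of the Ubn2 sum. Without Ddit4l the sums were 3.39 ± 0.924, 11.4 ± 2.16, 10.1 ± 1.11 and 22.4 ± 5.29 CPM in the same order. Both depleted libraries lay above both control libraries for 6 of 10 genes with Hira, 7 with Ubn1 and 9 with Ubn2, where 35.6%, 26.5% and 34.7% of all tested genes did so. No member lay below control in both libraries of any depletion, and the share of all tested genes that did was not counted. Zfp352, Tcstv1 and Gm12794, with no count in control, could not lie below it. These were bulk libraries, in which more cells expressing a gene and more RNA per expressing cell cannot be told apart.

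**Figure D1:**
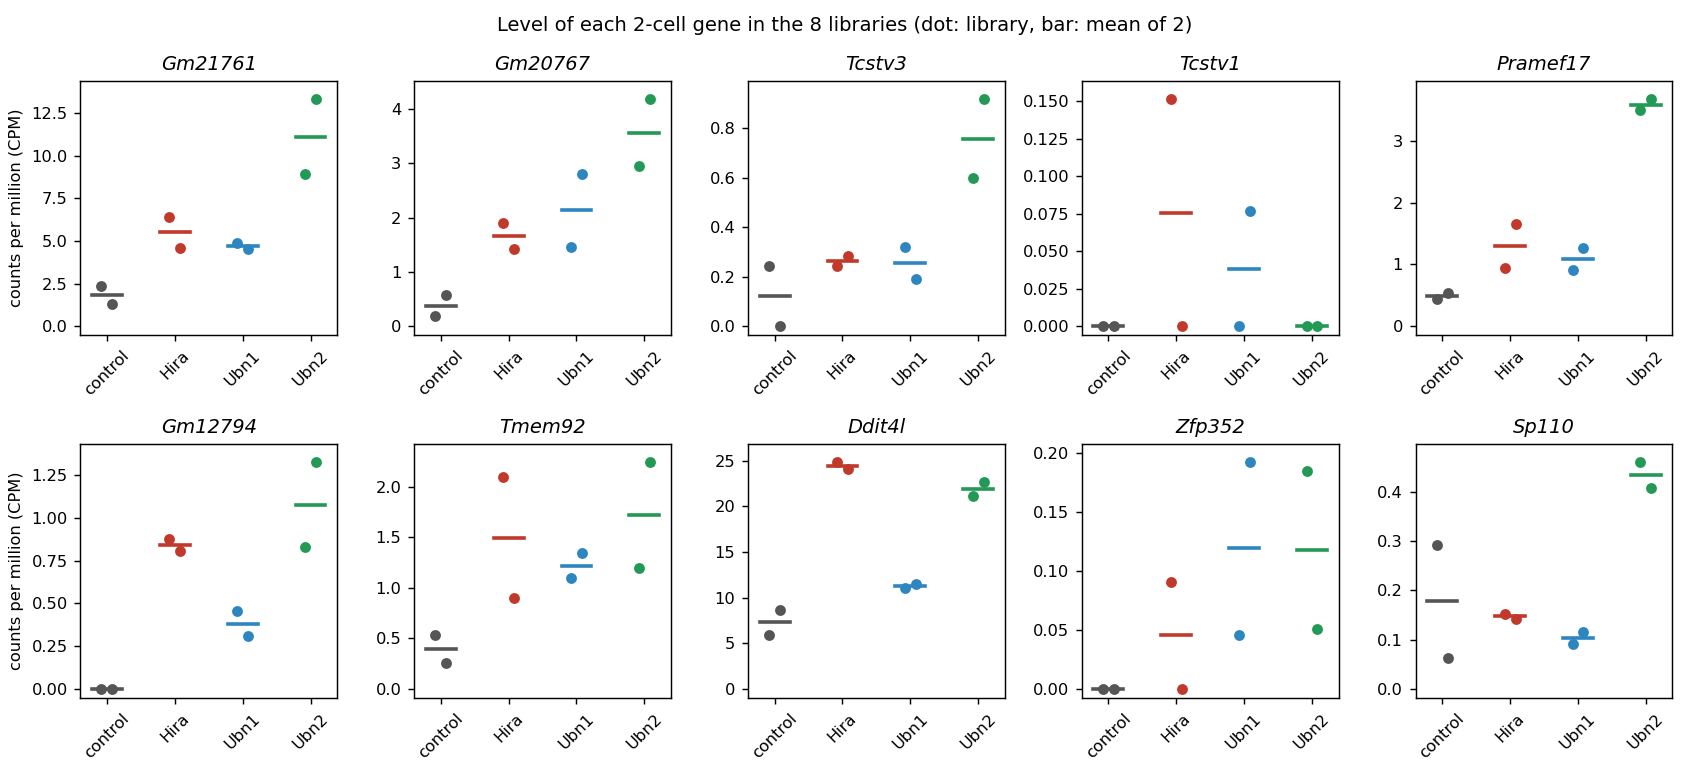
Level of each of the 10 genes in CPM (vertical axis, from 0, own scale in each panel) in the control, Hira, Ubn1 and Ubn2 libraries (dots, with a bar at the mean of 2). Gm21761, Gm20767 and Pramef17 were highest in both Ubn2 libraries, Ddit4l was highest in both Hira libraries, and Zfp352 and Tcstv1 stayed at or below 0.192 and 0.152 CPM.

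The changes were estimated with edgeR in a fit of all genes, and a call needed both an adjusted p under 0.05 and more than a 1.5-fold difference. In Hira depletion against control, 6 members passed the filter on low counts and all 6 were called higher, where 10.8% of all tested genes were. In Ubn1 depletion 5 passed and 4 were called higher, against 1.53% of all tested genes. In Ubn2 depletion 7 passed and 7 were called higher, against 9.59%. DESeq2 called 4 of the 5 members to which it gave an adjusted p in Hira depletion, 1 of 2 in Ubn1 depletion and 6 of 7 in Ubn2 depletion. The members were chosen with such values known, so nothing is read from these counts, and a scarce gene could pass the filter only through the depleted group. Sp110, Zfp352 and Tcstv1 were too scarce to be tested in any comparison with control.

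The Tcstv genes are short coding genes named for 2-cell-specific transcripts, and Tcstv1 and Tcstv3 are known for an effect on telomere length in ESCs. Tcstv1, Gm21761, Gm20767 and Tcstv3 lie in this order within 1 cluster on chromosome 13 of GRCm38, at 119893388-119894785 (minus strand), 119912095-119929272 (minus), 120140246-120155335 (plus) and 120316878-120318178 (plus). Their coding sequences were between 92.6% identical (Tcstv3 and Gm20767) and 97.1% identical (Gm21761 and Gm20767). The first 60 coding bases are shown as a stretch in which the 4 genes are nearly alike, which does not hold to the same degree over whole transcripts. They are from the GENCODE transcripts of GRCm38, 5′ to 3′ on the coding strand, and capitals mark the bases that differ from Tcstv1.
Tcstv1 (chr13:119894035-119894094, minus): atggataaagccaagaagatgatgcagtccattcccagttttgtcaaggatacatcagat
Gm21761 (chr13:119912693-119912752, minus): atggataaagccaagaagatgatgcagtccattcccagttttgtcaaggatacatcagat
Gm20767 (chr13:120154627-120154686, plus): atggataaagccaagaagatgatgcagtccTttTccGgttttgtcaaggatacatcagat
Tcstv3 (chr13:120317567-120317626, plus): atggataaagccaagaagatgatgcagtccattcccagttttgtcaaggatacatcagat
Tcstv1, Gm21761 and Tcstv3 were identical over these bases, and Gm20767 differed at 3 of them. Over whole transcripts, 76.2% of the 50-base windows of Gm21761 and 70.2% of those of Gm20767 also occur in another gene, chiefly in each other. The share was 31.4% for Tcstv3 and 15.0% for Tcstv1. How reads that fit several places were counted is not given in the sources used here, so the split of reads among the 4 genes is uncertain.

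Gm21761 was the most abundant of the family, and its RNA was higher in every depleted library than in control. It stood at 2.34 and 1.32 CPM in the control libraries, 6.42 and 4.61 in the Hira-depleted libraries, 4.88 and 4.54 in those of Ubn1 and 8.93 and 13.3 in those of Ubn2. No depleted library overlapped with control, and both Ubn2 libraries lay above all others. Against control the log2 fold change with Hira depleted was 1.63 (SE 0.29), with Ubn1 1.40 (SE 0.28) and with Ubn2 2.65 (SE 0.26). The Ubn1 call was lost without control replicate 2, where the log2 fold change was 1.00.

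Gm20767, the closest copy of Gm21761, had 0.195 and 0.566 CPM in control, 1.91 and 1.42 in the Hira-depleted libraries, 1.46 and 2.81 in those of Ubn1 and 2.95 and 4.18 in those of Ubn2. Its Ubn2 libraries were again the highest, while the Hira and Ubn1 libraries overlapped. The log2 fold changes were 2.02 (SE 0.48), 2.38 (SE 0.47) and 3.09 (SE 0.41), and the Ubn1 call was lost without Ubn1 replicate 2, at 1.83. Without control replicate 2, the control library with the higher level, they were 3.06, 3.42 and 4.14. Gm20767 was the member with the largest tested log2 fold change in Ubn1 depletion, where 0.0490% of tested genes had a larger one.

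Tcstv3 was counted 5 and 0 times in control, 8 and 6 times in the Hira-depleted libraries, 7 and 5 times in those of Ubn1 and 13 and 18 times in those of Ubn2. The Hira and Ubn1 libraries overlapped with control, and the Ubn2 libraries did not. Summed over libraries and scaled for depth, the ratio to control was 2.71 for Hira (95% exact interval for counting error 0.922 to 9.61), 2.62 for Ubn1 (0.859 to 9.49) and 7.85 for Ubn2 (3.02 to 25.8). Only in comparisons with Ubn2 libraries did Tcstv3 pass the filter, and its log2 fold change against control there was 2.87 (SE 0.83). That call was lost without control replicate 2, at 1.60, without Ubn2 replicate 2, at 2.52, and by DESeq2, at 2.77. Without control replicate 1, which holds all 5 control counts, the fitted value rose to 7.21. Tcstv1 had no count in either control or either Ubn2 library, 5 counts in 1 Hira library and 2 in 1 Ubn1 library. At these counts no difference in Tcstv1 was detectable.

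Because reads of these near-identical genes may be exchanged, the 4 were also added up. The sum was 2.78 and 1.89 CPM in control, 8.73 and 6.32 in the Hira-depleted libraries, 6.66 and 7.61 in those of Ubn1 and 12.5 and 18.4 in those of Ubn2. The ratio of the depth-scaled sums to control was 3.48 (2.83 to 4.31) for Hira, 3.21 (2.59 to 3.99) for Ubn1 and 6.84 (5.60 to 8.40) for Ubn2, with exact 95% intervals for counting error. The summed family was thus lowest in control and highest in Ubn2 depletion, and Hira and Ubn1 libraries overlapped.

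Of the 24 other annotated genes within 100 kb of these 4, 13 had any count and 1 was abundant enough to be tested. That gene was Gm21818, which holds 19.04% of Tcstv3's 50-base windows. It was counted 2 and 4 times in control, 33 and 8 times in the Hira-depleted libraries, 10 and 18 times in those of Ubn1 and 15 and 34 times in those of Ubn2. Gm21818 was called higher in Hira depletion (log2 fold change 2.60, SE 0.71, edgeR adjusted p = 0.00686) and in Ubn2 depletion (3.33, SE 0.67, adjusted p = 0.000473), and was not called in Ubn1 depletion (2.29, SE 0.74, adjusted p = 0.05002). AF067061, a further relative, had 0 and 0 counts in control and between 2 and 10 counts in each depleted library.

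**Figure D2:**
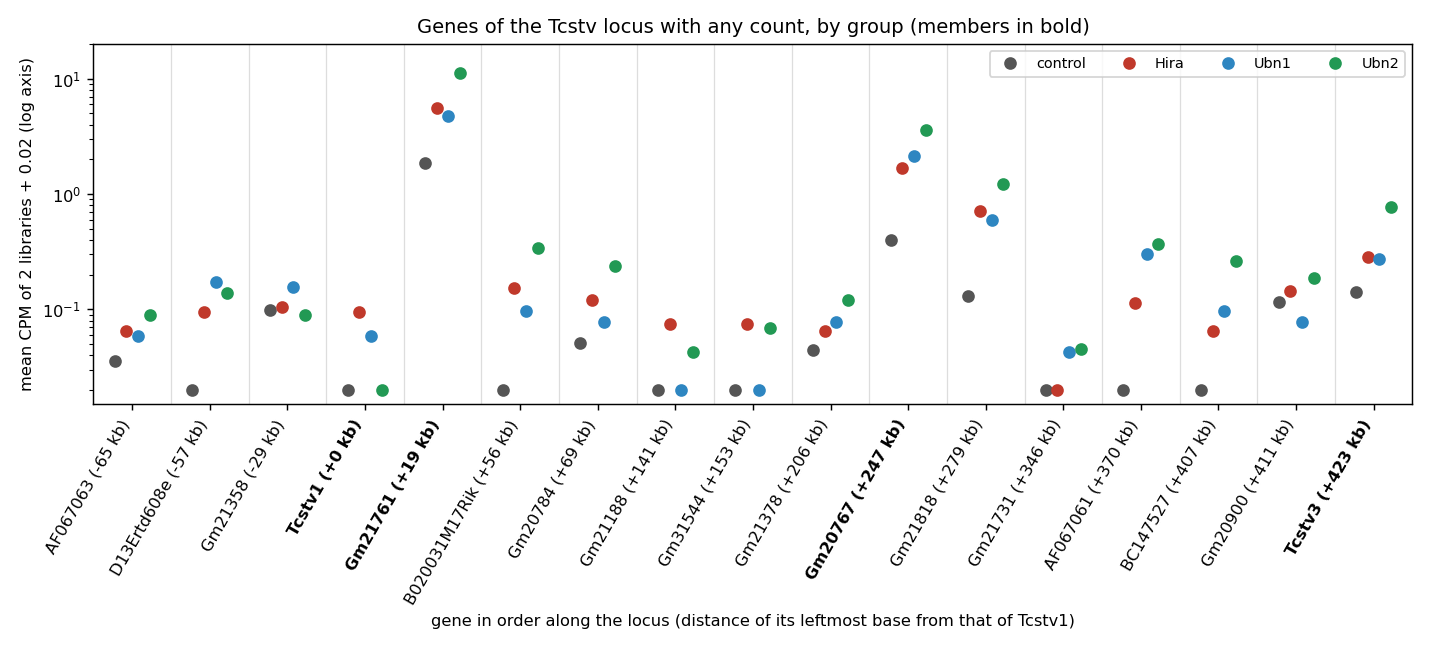
Mean CPM of 2 libraries plus 0.02 (log axis) for each counted gene of the Tcstv cluster, in order along the chromosome, with its distance from Tcstv1 in kb and the 4 members in bold. Dots are the 4 groups. Gm21761 and Gm20767 were the most abundant in every group, and the Ubn2 dot was the highest at Gm21761, Gm20767, Gm21818 and Tcstv3.

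Pramef17 and Gm12794 belong to the Prame-like family, whose proteins are built of leucine-rich repeats and many of which are expressed in the germ line and early embryo. Pramef17 lies on chromosome 4 at 143991119-143994369 on the minus strand. It had 0.439 and 0.535 CPM in control, 0.939 and 1.66 in the Hira-depleted libraries, 0.913 and 1.27 in those of Ubn1 and 3.50 and 3.67 in those of Ubn2. Both Ubn2 libraries stood well above the other 6, and the Hira and Ubn1 libraries overlapped with each other but not with control. Its log2 fold change against control was 1.34 (SE 0.48) for Hira, 1.14 (SE 0.49) for Ubn1, which was not called, and 2.84 (SE 0.35) for Ubn2. The Hira call was lost without Hira replicate 2 (0.905), without control replicate 1 (1.22), without control replicate 2 (1.504) and by DESeq2 (1.37).

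The reads of Pramef17 could not be separated fully from those of Gm13128, a copy on the same chromosome, since 73.5% of its 50-base windows occur there. Gm13128 was counted 32 and 40 times in control, 53 and 44 times in the Hira-depleted libraries, 47 and 71 times in those of Ubn1 and 121 and 117 times in those of Ubn2, so its highest libraries were also those of Ubn2.

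Gm12794, on chromosome 4 at 101940407-101943183 on the plus strand, had no count in either control library. It had 29 and 17 counts in the Hira-depleted libraries, 10 and 8 in those of Ubn1 and 18 and 26 in those of Ubn2, and every depleted library was above control. Against a floor of 3 counts in each control library, its rate was at least 7.42-fold higher with Hira, at least 3.27-fold higher with Ubn1 and at least 9.28-fold higher with Ubn2 depleted. In CPM the Hira libraries (0.879 and 0.807) lay above the Ubn1 libraries (0.456 and 0.307) and overlapped with the Ubn2 libraries (0.828 and 1.33). A neighbouring copy, Gm12800, holds 44.7% of its 50-base windows and was counted 3 and 3 times in control, between 6 and 24 times after Hira and Ubn1 depletion and 26 and 20 times after Ubn2 depletion.

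Tmem92 encodes a small membrane protein and is widely used as a marker of 2-cell-like cells. It lies on chromosome 11 at 94777217-94782703 on the minus strand, and 1.93% of its 50-base windows occur in another gene, so its reads were nearly all its own. Its level was 0.536 and 0.252 CPM in control, 2.09 and 0.902 in the Hira-depleted libraries, 1.10 and 1.35 in those of Ubn1 and 1.20 and 2.25 in those of Ubn2. All 6 depleted libraries lay above control, and the 3 depletions overlapped with one another. The log2 fold changes were 2.02 (SE 0.52), 1.70 (SE 0.51) and 2.18 (SE 0.50) for Hira, Ubn1 and Ubn2. These calls rested on few reads. The Hira call was lost without Hira replicate 1 (1.24) and without control replicate 2 (1.5), the Ubn1 call without Ubn1 replicate 2 (1.54), control replicate 1 (2.26) or control replicate 2 (1.18), and the Ubn2 call without Ubn2 replicate 2 (1.66).

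Ddit4l, also called REDD2, encodes a stress-responsive inhibitor of the growth kinase complex mTORC1. It lies on chromosome 3 at 137621612-137628333 on the plus strand, 0.175% of its windows are shared, and it was the best counted member, with 122 to 820 counts a library. It stood at 5.94 and 8.65 CPM in control, 24.8 and 24.0 in the Hira-depleted libraries, 11.0 and 11.5 in those of Ubn1 and 21.1 and 22.7 in those of Ubn2. The 4 groups did not overlap, and their order was Hira, Ubn2, Ubn1 and control, although the direct comparison did not call Hira and Ubn2 apart. The log2 fold change against control was 1.70 (SE 0.16) for Hira, 0.61 (SE 0.18) for Ubn1 and 1.56 (SE 0.16) for Ubn2. The Ubn1 change was close to the fold threshold and was not called without Ubn1 replicate 2 (0.58), without control replicate 1 (0.38) or by DESeq2 (0.61).

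Zfp352, a zinc finger gene whose transcript is a mark of the 2-cell embryo, lies on chromosome 4 at 90218820-90225702 on the plus strand. It was counted 0 and 0 times in control, 3 and 0 times in the Hira-depleted libraries, 1 and 5 times in those of Ubn1 and 4 and 1 times in those of Ubn2. All 4 libraries of Ubn1 and Ubn2 had at least 1 read where control had none, and no library reached 0.2 CPM. Summed over libraries and scaled for depth, the ratio to control had a lower exact 95% limit for counting error of 0.400 with Hira, 1.28 with Ubn1 and 1.16 with Ubn2 depleted, and no upper limit. These limits rest on few reads and leave out the spread between libraries. In the fits with no filter on low counts, Zfp352 was not called against control in any depletion.

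Sp110, a member of the interferon-induced Sp100 family of nuclear body proteins, lies on chromosome 1 at 85576899-85598817 on the minus strand. Its counts were 6 and 2 in control, 5 and 3 in the Hira-depleted libraries, 2 and 3 in those of Ubn1 and 10 and 8 in those of Ubn2. Only the Ubn2 libraries lay above control, and the Hira and Ubn1 libraries overlapped with it. The depth-scaled ratio to control was 0.968 (0.317 to 2.96) for Hira, 0.682 (0.176 to 2.36) for Ubn1 and 2.85 (1.18 to 7.57) for Ubn2, with exact 95% intervals for counting error. In the fits with no filter on low counts, Sp110 was not called against control in any depletion. Its log2 fold change with Ubn2 there was 1.37 (SE 0.89). Of its 50-base windows 42.3% occur in another gene, most often Gm16026, which had between 0 and 6 counts a library. The 7 other Sp100 family genes listed were too scarce to test, and 4 of them had no count at all. Of 22 interferon response genes, 13 were tested in Hira depletion with 3 called higher and 11 in Ubn1 depletion with 1 higher. In Ubn2 depletion 12 were tested, with 3 higher and 1 lower. Over all tested genes 10.8%, 1.53% and 9.59% were called higher, and 1595 of 18219 were lower with Ubn2. The summed level of the 22 genes was 213 to 224 CPM in control and 227 to 229 with Hira depleted. It was 228 to 236 with Ubn1 depleted and 250.4 CPM in both Ubn2 libraries, and the part of this in the Sp110 counts was not tested.

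Levels of different genes can be compared only per length of transcript. Per kilobase, Ddit4l was the highest in control at 2.50 ± 0.657 CPM per kb, before Gm21761 at 1.33 ± 0.524. After Ubn2 depletion Gm21761 stood at 8.09 ± 2.26 CPM per kb and Ddit4l at 7.50 ± 0.383, a difference within the spread of Gm21761. Gm20767 and Pramef17 followed at 2.50 ± 0.614 and 2.05 ± 0.0712 CPM per kb, then Tcstv3 at 0.973 ± 0.291, Tmem92 at 0.787 ± 0.339 and Gm12794 at 0.742 ± 0.243, whose spreads overlap. Sp110 and Zfp352 stood at 0.0640 ± 0.00542 and 0.0516 ± 0.0413 CPM per kb.

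For 6 of the 10 genes RefSeq gives a promoter on GRCm38.p6, taken as 250 bases before to 50 bases after the start. Gm12794 and Pramef17 are listed there as Pramel19 and Pramel14, and Sp110 has 2 starts. The windows of Zfp352, Sp110 and Gm21761 are shown because they carry letters in common. Capitals mark GGATTA or its complement TAATCC, the core bound by homeodomain proteins of the OTX, CRX and OBOX type, and the stretch from CTGGAG to ATATAAG. Each is printed 5′ to 3′ on the strand of the gene.
Zfp352 (chr4:90218570-90218869, plus): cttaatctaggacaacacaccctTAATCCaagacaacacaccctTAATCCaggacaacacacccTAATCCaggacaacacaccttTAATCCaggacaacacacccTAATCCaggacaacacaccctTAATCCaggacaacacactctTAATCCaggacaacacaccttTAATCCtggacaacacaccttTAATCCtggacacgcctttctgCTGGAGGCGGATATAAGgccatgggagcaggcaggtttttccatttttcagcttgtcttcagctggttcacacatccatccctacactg
Sp110 upstream start (chr1:85603842-85604141, minus): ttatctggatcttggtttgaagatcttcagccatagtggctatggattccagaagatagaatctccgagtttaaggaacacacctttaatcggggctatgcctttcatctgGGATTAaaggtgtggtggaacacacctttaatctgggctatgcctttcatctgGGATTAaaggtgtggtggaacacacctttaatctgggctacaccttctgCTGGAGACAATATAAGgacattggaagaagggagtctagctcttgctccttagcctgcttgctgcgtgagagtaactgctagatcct
Gm21761 (chr13:119913419-119913718, minus): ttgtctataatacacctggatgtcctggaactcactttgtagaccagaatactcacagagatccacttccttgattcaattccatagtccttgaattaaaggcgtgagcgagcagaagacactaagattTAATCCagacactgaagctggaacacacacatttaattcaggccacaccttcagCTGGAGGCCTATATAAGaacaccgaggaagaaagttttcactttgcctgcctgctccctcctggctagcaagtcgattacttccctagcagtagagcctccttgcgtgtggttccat
The RefSeq starts of Gm21761 and Ddit4l lie inside the genes as GENCODE draws them, and the upstream Sp110 start lies outside GENCODE's gene. The count tables hold 1 value per gene and cannot say which start was used.

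The Zfp352 window held 9 matches to GGATTA or TAATCC, all read on the minus strand and 20 or 21 bases apart, from position -227 to -56 relative to the start. It was the only one of 32851 promoters with 9, where 7.06% had any. The upstream Sp110 window held 2 such matches, the other Sp110 window 1 and the Gm21761 window 1. CTGGAG followed after 3 or 4 bases by ATATAAG began at position -39 in Zfp352, -37 in Sp110 and -67 in Gm21761. This pattern was written down after these windows had been read, so its presence in 3 of 6 members is no test. It occurs in 32 of 32851 promoters (0.0974%) and in 6 of 42 other 2-cell genes with a promoter, but in none of 4 Zscan4 genes. TATAAA, found in 13.6% of promoters, occurred in 1 member, Ddit4l, 35 bases after the start, and the DUX-type TGATTNAATCA, found in 0.0335%, in none. The members with the 2-piece pattern did not share a level, since Gm21761 was among the most abundant and Zfp352 and Sp110 among the scarcest.

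**Figure D3:**
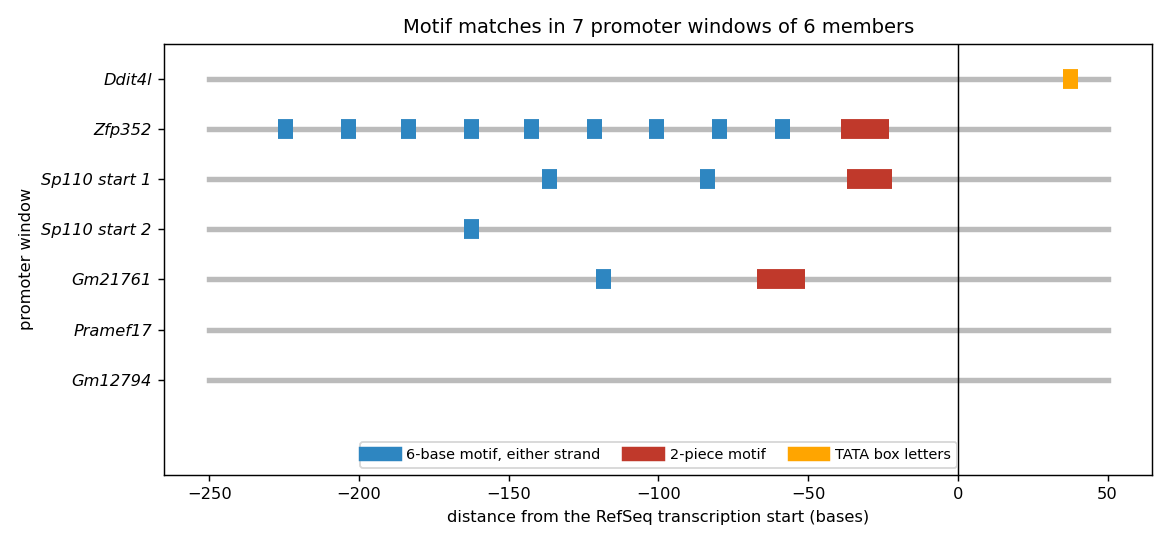
Position of each match in 7 promoter windows of 6 members, as distance in bases from the RefSeq start (0), with grey lines for the windows. Blue blocks are the 6-base motif on either strand, red blocks the CTGGAG to ATATAAG stretch and the orange block TATAAA. The 9 evenly spaced blocks of Zfp352 and the red block close to the start of 3 genes stand out.

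The 3 depletions share their 2 control libraries, so their values against control are set side by side and not correlated. Over the 5 members tested in all 3 comparisons, Tmem92, Ddit4l, Gm21761, Gm20767 and Pramef17, the median log2 fold change with Hira depleted was 1.70, with Ubn1 1.40 and with Ubn2 2.65, where the medians over all tested genes were 0.011, -0.0024 and -0.0041. The lowest and highest of the 5 values were 1.34 and 2.02 for Hira, 0.61 and 2.38 for Ubn1, and 1.56 and 3.09 for Ubn2.

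**Figure D4:**
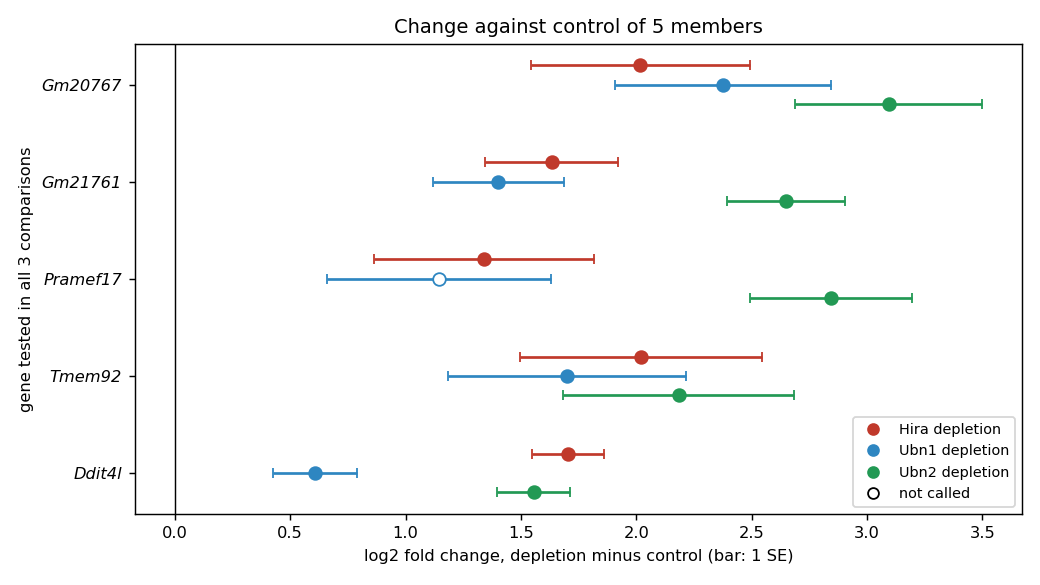
Log2 fold change against control (horizontal axis) with 1 SE for the 5 members tested in all 3 depletions, filled where called. Ubn2 gave the largest value for Gm20767, Gm21761, Pramef17 and Tmem92, and Hira for Ddit4l, and the open circle is Pramef17 in Ubn1 depletion at 1.14.

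The depleted libraries were also compared directly, without control. Between Ubn2 and Hira, 3 of 7 tested members were called higher in Ubn2, Gm21761 by 0.98 (SE 0.22), Gm20767 by 1.06 (SE 0.30) and Pramef17 by 1.497 (SE 0.33) on the log2 scale, where 5.61% of all tested genes were called higher and 12.0% lower. The Gm20767 call was lost without Ubn2 replicate 2, at 0.79. Ddit4l (-0.17, SE 0.11), Tmem92 (0.13, SE 0.42), Gm12794 (0.33, SE 0.43) and Tcstv3 (1.51, SE 0.57) were not called. Between Ubn2 and Ubn1, Ddit4l (0.95, SE 0.14), Gm21761 (1.24, SE 0.21) and Pramef17 (1.70, SE 0.31) were called higher in Ubn2, against 4.61% of all tested genes. Gm20767 (0.72, SE 0.32), Tcstv3 (1.56, SE 0.61), Gm12794 (1.49, SE 0.52) and Tmem92 (0.48, SE 0.39) were not, although without Ubn1 replicate 2 Gm20767 was called at 1.27. Between Hira and Ubn1, Ddit4l alone of 6 tested members was called, higher in Hira by 1.13 (SE 0.14), against 9.52% of all tested genes. Gm12794 stood at 1.16 (SE 0.53) there, Gm20767 at -0.34 (SE 0.35), and Tmem92, Gm21761 and Pramef17 between 0.22 and 0.34.

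Other 2-cell genes were taken from 5 lists of 70 genes, of which 68 were in the tables and 15 had no count. In Hira depletion 20 were tested and 13 were higher, with a median log2 fold change of 2.01. In Ubn1 depletion 7 of 15 were higher (median 1.43), and in Ubn2 depletion 15 of 20 were (median 2.43). Over all tested genes 10.8%, 1.53% and 9.59% were called higher in Hira, Ubn1 and Ubn2 depletion. Genes scarce in control could pass the filter only through the depleted group. Neither edgeR nor DESeq2 called any of the other 2-cell genes lower against control, and at an unadjusted edgeR p under 0.05 the lower genes were 0, 1 and 1. DESeq2 called 8, 1 and 11 of them higher. The Ubn1 count fell to between 2 and 4 when any 1 library was left out. Between Ubn2 and Hira 3 of 24 were higher and 2 lower, against 5.61% and 12.0% of all tested genes. Between Ubn2 and Ubn1 5 of 20 were higher, against 4.61%. Between Hira and Ubn1 6 of 21 were higher, against 9.52%, and these calls did not hold without Hira replicate 1. The 9 Zscan4 genes, zinc finger genes of the same stage, were higher in 9, 7 and 9 cases in Hira, Ubn1 and Ubn2 depletion. Of 5 Usp17l deubiquitinase genes in the tables, 4 of 5 tested were higher with Hira, 1 of 4 with Ubn1 and 4 of 4 with Ubn2.

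Among the 5 lists, the eIF1A-like genes, copies of a translation initiation factor gene, had the most called members. Of 14 listed genes, all 6 tested with Hira, 5 with Ubn1 and 8 with Ubn2 were higher. Over all tested genes the shares called higher were 10.8%, 1.53% and 9.59%. Apart from Gm5662 and Gm8300, the tested genes averaged only 0.0157 (Gm2035) to 0.491 CPM (Gm2016) in control. They could pass the filter only with the help of a depleted group, so these counts are a description. Gm5662 had 1.75 ± 0.209 CPM in control and 7.23 ± 1.30, 4.07 ± 0.0508 and 8.31 ± 2.25 CPM after Hira, Ubn1 and Ubn2 depletion, with log2 fold changes of 2.05, 1.22 and 2.25. Gm8300 (1.97, 1.43 and 2.52) and Gm8332 (2.73, 1.63 and 3.17) were likewise called higher in each. The 6 Tdpoz genes were too scarce to test, and 2 had no count.

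In the Prame-like list of 28 genes, 2 of 5 tested genes were higher with Hira and 3 of 5 with Ubn2. Over all tested genes the shares called higher were 10.8% with Hira, 1.53% with Ubn1 and 9.59% with Ubn2. Genes scarce in control, such as Gm13119 and Pramef25, could pass the filter only through a depleted group. With Ubn1 neither edgeR nor DESeq2 called any of the 4 tested, of which 1 was higher and 1 lower at an unadjusted p under 0.05. Gm13119 had a log2 fold change of 2.67 (SE 0.53) with Hira and 2.53 (SE 0.60) with Ubn2, and Pramef25 one of 2.34 (SE 0.61) with Ubn2. The list also holds AU018091, a gene on chromosome 7 that is not named as a Prame gene, and without it 2 of 4 tested genes were higher with Hira and 2 of 4 with Ubn2. AU018091 stood at 170 ± 7.68 CPM in control and 271 ± 10.3 CPM after Ubn2 depletion, a log2 fold change of 0.67 (SE 0.070). Compared directly, AU018091 was higher with Ubn2 than with Hira by 0.59 (SE 0.076) and than with Ubn1 by 0.62 (SE 0.088), and both differences were called.

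Of the single-copy 2-cell genes, 4 of 8 tested were higher with Hira, 2 of 5 with Ubn1 and 3 of 6 with Ubn2. Over all tested genes the shares called higher were 10.8%, 1.53% and 9.59%. Gm8994 (1.90, 1.84 and 2.72) and Gm5039 (2.43, 2.33 and 3.09), 2 loci known from 2-cell-like cells, were called in all 3 depletions. Abcb5, a drug transporter gene, had no count in control and 0.776 ± 0.112, 0.301 ± 0.155 and 0.337 ± 0.0438 CPM after Hira, Ubn1 and Ubn2 depletion. Such a gene could pass the filter only through a depleted group. The regulators of the 2-cell-like state, 28 listed genes that include chromatin repressors, had few calls. Of 26 tested, 3 were called lower with Hira, where 1027 of all 19035 tested genes were. With Ubn2 1 was called higher and 1 lower, where 1748 and 1595 of all 18219 tested genes were. With Ubn1 neither edgeR nor DESeq2 called any. At an unadjusted edgeR p under 0.05, 3 were higher and 18 lower with Hira. The same counts were 2 and 7 with Ubn1, and 8 and 8 with Ubn2. Dppa2, an activator of 2-cell genes, rose by 0.67 (SE 0.079) and Lin28a fell by 1.17 (SE 0.068) on the log2 scale with Ubn2, and Uhrf1, needed for maintenance DNA methylation, fell by 0.67 (SE 0.078) with Hira.

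**Figure D5:**
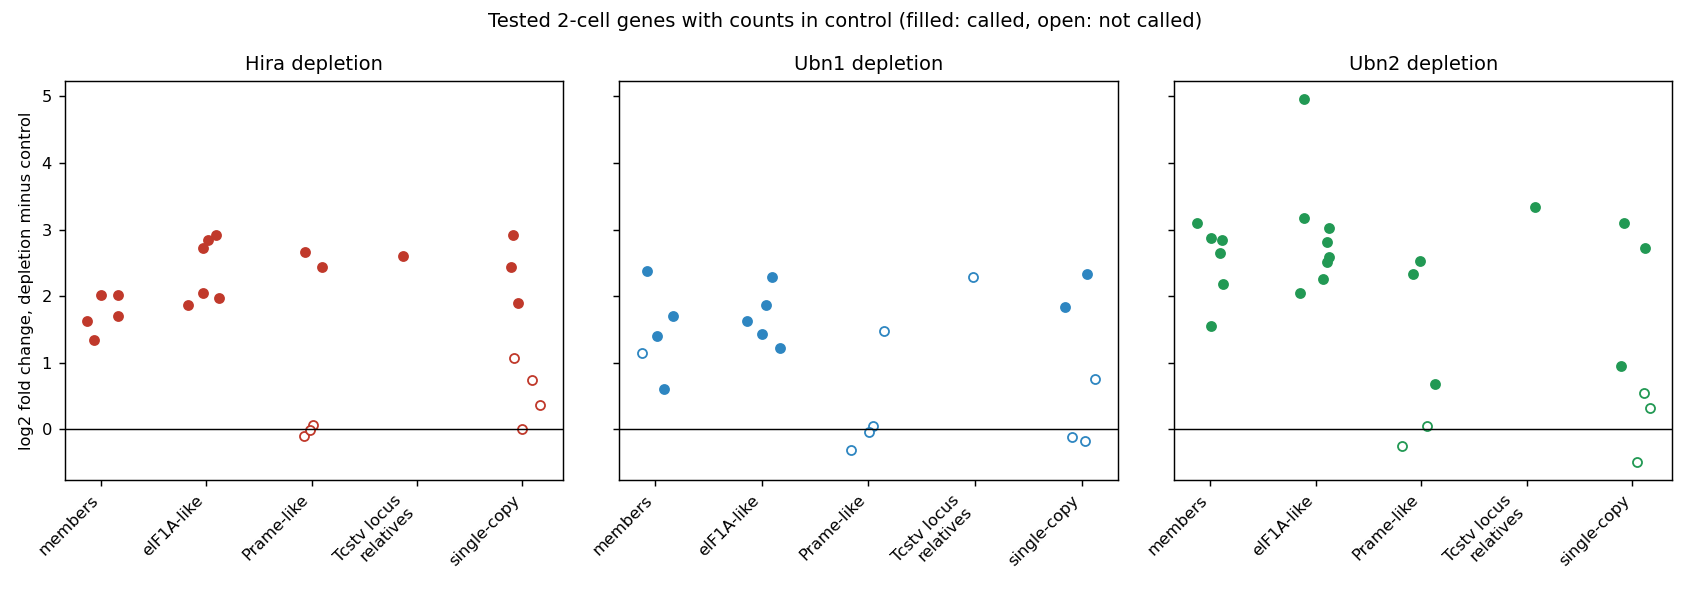
Log2 fold change against control of tested genes with any count in control, for the members and 4 lists of other 2-cell genes, in Hira, Ubn1 and Ubn2 depletion. Filled dots were called. The tested eIF1A-like genes were called without exception, though most could pass the filter only with the help of the depleted group. The Prame-like and single-copy lists held called and uncalled genes.

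Within 100 kb of Tmem92, Ddit4l, Zfp352 and Sp110 lay 10, 6, 1 and 11 annotated genes, of which at most 2 a locus were tested. The smallest adjusted p among these belonged to Xylt2, near Tmem92, in Hira depletion (0.00149, edgeR), where its log2 fold change of 0.38 was under the fold threshold. Of 8 genes near Pramef17, only Pramef25 was tested, in Ubn2 depletion alone, and it was called higher (2.34, edgeR adjusted p = 0.00447). Of 8 near Gm12794, 1 was tested with Hira, 1 with Ubn1 and 2 with Ubn2. Gm12800 was called higher with Ubn2 (3.21, adjusted p = 0.000353) and C130073F10Rik with Hira (1.02, adjusted p = 0.0300).

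Genes with the pattern most like the members were sought over the 8 libraries among 17832 genes of at least 0.5 CPM. The measure was the root mean square difference of log2 levels, taken as CPM plus 0.5 and centred on each gene's mean. The added 0.5 CPM makes the changes of scarce genes smaller than in the fits. The mean profile of the 6 members that averaged at least 0.5 CPM was lowest in control, at -1.04 and -1.02, and highest in Ubn2, at 0.62 and 1.01. The 5 nearest genes were Gm10535 (0.127), Fam189a2 (0.145), Galnt6 (0.158), Nkx2-9 (0.181) and Rtkn (0.183), none of them on the lists of 2-cell genes. Of single members, Gm21761 was nearest to Zscan4c (0.184), Gm20767 to Gm8994 (0.250), Tmem92 to H2-Eb1 (0.167), Ddit4l to Dock10 (0.137), Pramef17 to Smyd1 (0.168) and Gm12794 to Trp73 (0.138). The members themselves lay 0.171 (Gm12794) to 0.336 (Pramef17) from their mean profile, so each of these 5 genes was closer to it than most of the members.

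Markers of other cell types moved in some groups. The 10 trophoblast markers summed to 75.7 to 77.7 CPM in control, 116 to 142 after Hira, 68.8 to 75.5 after Ubn1 and 61.6 to 65.9 after Ubn2 depletion, and Plac1 was at 0 in all groups but Hira. Krt8, Krt18, Cdx2 and Hand1 were called higher and Ascl2 lower with Hira, Ascl2 lower with Ubn1, and Gata3 higher and Krt8, Krt18 and Ascl2 lower with Ubn2. The 10 primitive endoderm markers summed to 75.4 to 79.9, 89.2 to 104, 93.4 to 98.9 and 80.5 to 89.6 CPM in the same order, with Sox17 and Amn called higher with Hira and Gata6 and Pdgfra lower with Ubn1. The 8 fibroblast and feeder markers summed to 71.0 to 73.1, 61.4 to 70.5, 57.0 to 72.6 and 49.4 to 54.2 CPM, and Postn, Lum and Dcn were at 0 in all groups but Ubn2. Of these markers, Twist1 and Col1a1 were called higher and Fbln1 lower with Hira, and Postn, Col1a2 and Twist1 higher and Fbln1 and Thy1 lower with Ubn2. With Ubn1 edgeR called 0 of 4 tested, with 0 at an unadjusted p under 0.05, and DESeq2 called 0 of 3. The part of these cell types in the levels of the 10 genes was not tested.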

How the data were processed

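RNA from 8 mouse ESC libraries, 2 per group, was sequenced after an mRNA library preparation. Per the labels, the authors used Trim Galore for trimming, STAR for alignment (GRCm38) and featureCounts for counting. The versions, the strand setting and the handling of multi-mapping reads are not given in the sources used here. The deposited values are raw counts per gene in 3 tables, each a depletion beside the same 2 control libraries, whose values were identical between tables. Groups came from the sample titles. The members and lists were chosen with earlier results of these data known. All 10 members are named, as are up to 3 tested genes a list with the smallest adjusted p against control, the genes nearest in pattern and up to 3 neighbours a locus.

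Each pair of groups was fitted over all genes with edgeR 4.0.16 in R 4.3.3 (quasi-likelihood test, TMM, filterByExpr, Benjamini-Hochberg), with calls needing an adjusted p under 0.05 and more than a 1.5-fold difference, on 18205 to 19035 genes. Alternatives were DESeq2 1.42.0 size factors and Wald test, no filter, 1 joint fit of the 8 libraries, a minimum of 10 counts in each library, the replicate number as a block, and each library left out. Values are means ± SD over 2 libraries, and log2 fold changes come from the fits. Gene positions, transcript lengths and shared 50-base windows were read from GENCODE M21 (GRCm38), in which 55233 of 55418 symbols matched 1 gene. Promoters came from RefSeq (GRCm38.p6).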

Additional observations from a re-analysis of the deposited data

Results flagged for a closer look

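For 4 of the members the effect of depletion differed between depletions, as called in the direct comparison of the depleted libraries. Ddit4l was higher in Hira than in Ubn1 libraries by 1.13 and higher in Ubn2 than in Ubn1 libraries by 0.953 on the log2 scale. Gm21761 was higher in Ubn2 than in Hira libraries by 0.982 and than in Ubn1 libraries by 1.24. Gm20767 was higher in Ubn2 than in Hira libraries by 1.06. Pramef17 was higher in Ubn2 than in Hira libraries by 1.5 and than in Ubn1 libraries by 1.7. The members were chosen with results of these data known, so these differences are descriptions, and with 2 libraries a group no library could be tested as standing apart.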

How the results depend on the processing

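With few reads on most members, most limits here come from depth and from 2 libraries a group, and the cause of a change between settings was not tested. DESeq2's Wald test called 295 genes in Ubn1 against control and 1022 in Ubn2 against Ubn1, where edgeR called 568 and 1584. For the members it called 1 in Ubn1 against control, where it gave an adjusted p to 2. For the other 2-cell genes it called 8 in Hira and 1 in Ubn1 against control, 2 between Ubn2 and Hira and 2 between Hira and Ubn1. At least 10 counts in every library tests fewer genes. It left 2 members called in each comparison with control and 5, 4 and 6 other 2-cell genes for Hira, Ubn1 and Ubn2, with 1 between Ubn2 and Hira, and the member median log2 fold change was 2.104 in Ubn2 against control, 0.6408 between Ubn2 and Hira and 0.9614 between Ubn2 and Ubn1. With no filter, 8 other 2-cell genes were called between Ubn2 and Ubn1. The replicate numbers do not pair the libraries by any source, and the deviations of same-numbered libraries correlated between -0.0985 and 0.0978 over 19264 genes. With the replicate block, 8 other 2-cell genes were called between Ubn2 and Ubn1, against 5 without it, Gm20767 gained a call there, and no other call of a member changed. Leaving out 1 library at a time gave 350 to 688 genes called in Ubn1 against control, 1 to 4 members there (1 without Ubn1 replicate 2, 2 without control replicate 1 or control replicate 2) and 2 to 4 other 2-cell genes. The other 2-cell genes called ran from 2 to 5 between Ubn2 and Hira, from 1 to 6 between Ubn2 and Ubn1 and from 0 to 4 between Hira and Ubn1. The member median ran from 2.24 to 2.917 in Ubn2 against control, from 0.6715 to 1.251 between Ubn2 and Hira and from 0.927 to 1.498 between Ubn2 and Ubn1. Uncalled differences between depletions changed sign: Tmem92 ran from -0.377 to 0.9121 and Gm12794 from -0.03721 to 0.6422 between Ubn2 and Hira, Tmem92 from -0.02968 to 0.868 between Ubn2 and Ubn1, and Tmem92 from -0.4306 to 0.7749, Gm21761 from -0.02329 to 0.4545, Gm20767 from -0.7451 to 0.2086 and Pramef17 from -0.2164 to 0.6043 between Hira and Ubn1. DESeq2 size factors and the fit of all 8 libraries moved none of the counts by over 1.5 times.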
